A study of Homo sapiens with 4 samples.

Results

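Transfer RNA genes were examined here for peaks of PPARα and of PML/RARA in NB4, a human line from acute promyelocytic leukemia whose cells express a PML::RARA fusion protein. All genes that RefSeq (GRCh38.p14) classes as tRNA on chromosomes 1 to 22 were taken, each with a window of 1 kb on both sides. A gene was called marked by an antibody when at least 1 base of that antibody's peak list fell in the window. The table held 465 tRNA genes. Of these, 425 entered the set, 4 lay on X and 22 on the mitochondrial genome. The remaining 14 were listed under chromosome 1 or 6 but their coordinates broke the row order by over 1 Mb, as if taken from another scaffold, and they were left out. The 425 genes were 70 to 108 bases long, with a median of 73 bases.

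The libraries were made by CUT&Tag, in which an antibody directs a transposase to chromatin and the cut fragments are sequenced. PPARα, a nuclear receptor that responds to fatty acids, was targeted in 1 library and PML/RARA in another, and each had its own IgG library. Cells of all 4 libraries were NB4, and the labels name no drug, dose or time. The IgG libraries were not analysed here. No source used here states which part of the fusion the PML/RARA antibody binds, so the fusion cannot be told apart from unfused PML or RARA. Each antibody had 1 deposited peak list and no replicate, with 9573 PPARα peaks and 45085 PML/RARA peaks on chromosomes 1 to 22. No count of reads was used, so the depth behind either list is unknown. Among 6 myeloid genes set as a check of the cell line, MPO had 1 PPARα peak and 2 PML/RARA peaks, PRTN3 had 3 PML/RARA peaks, AZU1 and CEBPE had 2 each, and ELANE and CD33 had none. Among the genes of other cells reported here, CD3E had 1 PML/RARA peak, and ALB, MYH7, GFAP and HBB had no peak of either antibody.

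RNA polymerase III transcribes tRNA genes from a promoter that lies inside the gene. Its A box and B box are bound by the factor TFIIIC, which brings TFIIIB to the DNA just upstream of the gene, and TFIIIB in turn brings the polymerase. Many tRNA genes exist as several copies spread over the genome, and a tRNA symbol gives the amino acid in one letter, the anticodon, a number for the mature sequence (the isodecoder) and a copy number. Genes that share an isodecoder number therefore carry the same mature tRNA sequence. TRX-CAT marks the initiator methionine tRNA, with which cytosolic translation starts, and TRU-TCA the tRNA of selenocysteine.

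RefSeq promoter windows held 14 of the tRNA genes whole, and their letters are shown to let a reader compare marked with unmarked genes. The sequence text was available for those 14 only, and the 8 below were picked from them with their peaks known. Each is written 5′ to 3′ on the strand that carries its anticodon and, where present, the B box core, since the gene table gives no strand for tRNA genes. Capitals mark the letters GGTTCGA (B box core) and AGTGG (the letters that often end the A box), searched on both strands. TRR-ACG2-1 (arginine, chr3:45688999-45689071, minus strand) had peaks of both antibodies. TRH-GTG1-9 (histidine, chr15:45201151-45201222, plus strand) had both, and TRH-GTG1-3 (chr1:148281365-148281436, plus strand) had a PML/RARA peak alone. TRP-TGG3-2 (proline, chr14:20684016-20684087, plus strand) had both, and TRP-TGG3-5 (chr16:3188094-3188165, plus strand) had a PML/RARA peak alone. TRL-AAG2-2 (leucine, chr6:28943622-28943703, minus strand) had a PPARα peak alone, and TRI-AAT8-1 (isoleucine, chr6:27668583-27668656, plus strand) and TRA-AGC2-2 (alanine, chr6:28863685-28863756, minus strand) had neither.
TRR-ACG2-1: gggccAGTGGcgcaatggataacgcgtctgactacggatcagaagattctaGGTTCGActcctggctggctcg
TRH-GTG1-9: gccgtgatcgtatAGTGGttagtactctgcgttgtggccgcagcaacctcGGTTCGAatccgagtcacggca
TRH-GTG1-3: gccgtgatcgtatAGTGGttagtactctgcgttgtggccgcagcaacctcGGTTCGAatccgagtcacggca
TRP-TGG3-2: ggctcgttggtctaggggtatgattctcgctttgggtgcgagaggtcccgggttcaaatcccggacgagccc
TRP-TGG3-5: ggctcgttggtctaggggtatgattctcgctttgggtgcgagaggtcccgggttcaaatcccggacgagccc
TRL-AAG2-2: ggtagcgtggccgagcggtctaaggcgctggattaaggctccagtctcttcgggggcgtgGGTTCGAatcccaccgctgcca
TRI-AAT8-1: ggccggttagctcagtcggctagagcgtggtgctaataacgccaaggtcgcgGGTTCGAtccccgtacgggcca
TRA-AGC2-2: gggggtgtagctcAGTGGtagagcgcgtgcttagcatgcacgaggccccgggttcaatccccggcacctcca

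The histidine copies matched at 72 of 72 bases, and so did the proline copies, although the members of each pair differed in their PPARα call. The B box core was found in 9 of the 14 windows with a tRNA gene (64.3%), against 302 of all 35116 RefSeq promoter windows (0.860%). AGTGG was found in 11 of those 14 windows (78.6%), against 17588 of all windows (50.1%), but inside the tRNA gene itself in only 6 of the 14. The tRNA genes with GGTTCGA included 3 of the 4 that had no peak and 4 of the 5 with both peaks. Among those shown, TRR-ACG2-1 carried the letters of both motifs, the unmarked TRI-AAT8-1 carried GGTTCGA, the unmarked TRA-AGC2-2 carried AGTGG, and the proline copies carried neither. The AGTGG match began from base 6 in TRR-ACG2-1 and in TRI-TAT2-2, which is not shown. It began from base 14 in the other genes that held it. Whether the match from base 6 ends the A box was not tested. A match is only of letters, and a missing match says only that these letters are not in the sequence.

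PPARα peaks marked 157 of the 425 tRNA genes (36.9%, 95% Clopper-Pearson interval 32.3 to 41.7%). PML/RARA peaks marked 235 (55.3%, 50.4 to 60.1%). Both antibodies marked 152 genes, PPARα alone marked 5, PML/RARA alone marked 83, and 185 had no peak of either. PPARα peaks were thus found almost wholly at genes that also had a PML/RARA peak, in 152 of 157 (96.8%). This was not particular to tRNA genes: it held for 96.4% of PPARα-marked other genes of 150 bases or less. Among PPARα-marked protein-coding genes, by either end, it held for 98.9%. Of the PML/RARA-marked tRNA genes, 64.7% had a PPARα peak (58.2 to 70.8%), against 33.7% of such short genes and 55.3% of such protein-coding genes. The lists differ in length, and that touches the order of the antibodies. When the PML/RARA list was cut to its 9573 peaks of highest −log10 q, the number in the PPARα list, PML/RARA marked 99 tRNA genes and PML/RARA alone 8, so that fewer genes had a PML/RARA peak than a PPARα peak. The intervals cover counting error over genes only, and neighbouring genes often share a peak.

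Other short genes were marked far less often under the same window. Among 86 tRNA-like pseudogenes, 2 had a PPARα peak (2.33%), 6 a PML/RARA peak (6.98%) and 2 both. Among all 5780 other annotated genes of 150 bases or less, 194 had a PPARα peak (3.36%), 555 a PML/RARA peak (9.6%) and 3.24% both, against 35.8% with both among tRNA genes. Small nucleolar RNA genes stood at 2.56% for PPARα and 9.09% for PML/RARA, and microRNA genes at 6.11% and 17.1%, with 5.94% at both. Among 100 small nuclear RNA genes, 22 had a PPARα peak and 33 a PML/RARA peak. The tRNA genes came close to protein-coding genes, of which 33.1% had a PPARα peak and 59.2% a PML/RARA peak within 1 kb of an annotated end, and 32.7% both. For protein-coding genes both ends were used, since the table has no strand, so that their windows are larger. With the PML/RARA list cut as above, the shares with a PML/RARA peak were 23.3% of tRNA genes, 3.7% of other short genes and 31.0% of protein-coding genes.

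**Figure D1:**
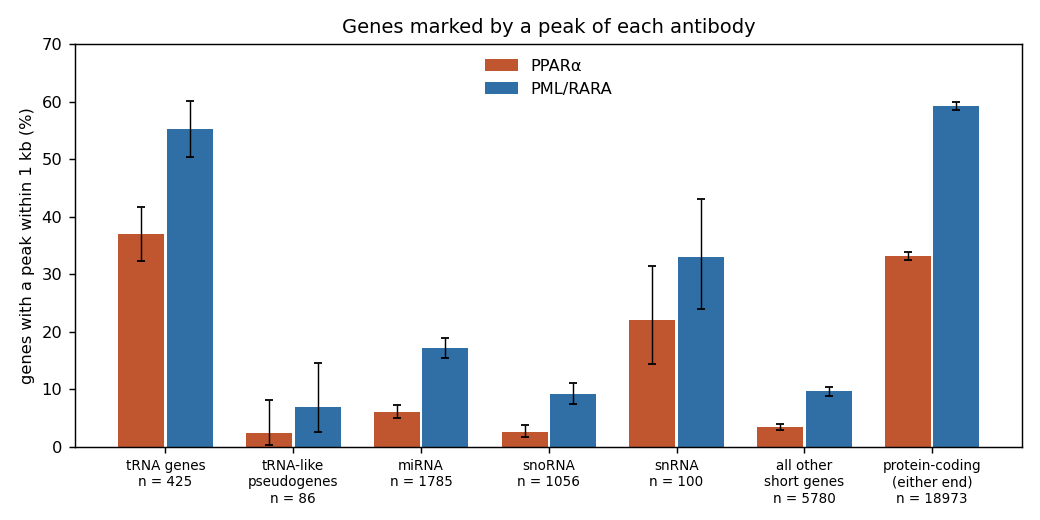
Share of genes (%) with a peak of PPARα (left bar of each pair) or PML/RARA (right bar) in the gene and 1 kb on each side, or within 1 kb of either end for protein-coding genes. Whiskers are 95% Clopper-Pearson intervals over genes, from 1 peak list per antibody. tRNA genes stood at 36.9% and 55.3%, above each other class of short genes drawn and beside protein-coding genes at 33.1% and 59.2%.

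Many tRNA genes lie beside ends of protein-coding genes, where a window can also hold another gene's promoter. Of the 425 genes, 73 lay within 2 kb of an annotated end of a protein-coding gene. Of these 73, 63 had both peaks, 6 PML/RARA alone, none PPARα alone and 4 neither, which puts 86.3% at a PPARα peak and 94.5% at a PML/RARA peak. Of the 352 genes farther away, 89 had both peaks, 5 PPARα alone, 77 PML/RARA alone and 181 neither, or 26.7% with PPARα and 47.2% with PML/RARA. Other short genes over 2 kb from coding ends were marked in 64 of 5135 cases by PPARα (1.25%), in 312 by PML/RARA (6.08%) and in 1.17% by both, against 25.3% with both among tRNA genes at that distance. The higher share at tRNA genes than at other short genes was therefore also present away from coding ends.

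The share was lower at each step away from coding ends. It was 44.7% for PPARα and 64.5% for PML/RARA among 76 genes at 2 to 10 kb. It was 28.8% and 48.8% among 160 genes at 10 to 50 kb. Beyond 50 kb it was 12.1% for PPARα and 33.6% for PML/RARA among 116 genes. PPARα also made up less of the PML/RARA set with distance: 91.3% of PML/RARA-marked genes within 2 kb had a PPARα peak (82.0 to 96.7%), against 53.6% of those farther away (45.7 to 61.4%). At the 2 kb cut neither fall was particular to tRNA genes, and the steps farther out were not compared with other short genes. Other short genes had PPARα in 3.36% of all cases and in 1.25% beyond 2 kb. Of their PML/RARA-marked members, 33.7% of all and 19.2% of those beyond 2 kb had a PPARα peak. At tRNA genes, the median fold of the best PPARα peak was 7.88 within 2 kb and 6.30 beyond. For PML/RARA it was 13.0 within 2 kb and 9.96 beyond. The part of the coding genes' own promoters in these shares was not tested. Once ends were set aside, the shares inside and outside coding genes were close, but with 22 genes inside the intervals are too wide to exclude a difference. Among genes over 2 kb from an end, PPARα marked 6 of 22 inside a coding gene's span (27.3%, 10.7 to 50.2%) and 88 of 330 outside (26.7%). PML/RARA marked 10 of those 22 (45.5%, 24.4 to 67.8%) and 156 of those 330 (47.3%).

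**Figure D2:**
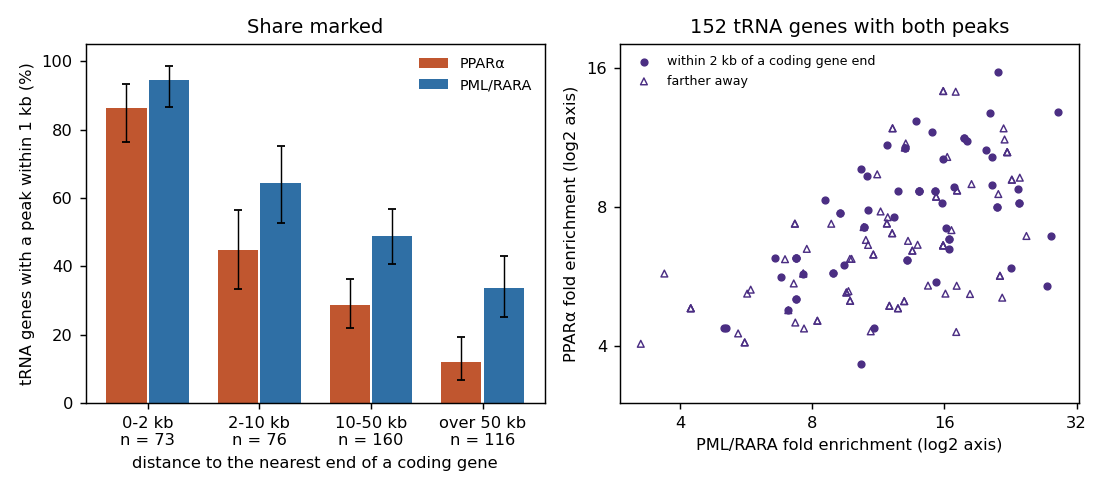
Left, share of tRNA genes (%) with a PPARα or PML/RARA peak by distance to the nearest protein-coding gene end, with 95% Clopper-Pearson intervals. Right, fold enrichment of the best PPARα peak against that of the best PML/RARA peak at the 152 genes with both, on log2 axes. Shares ran from 86.3% and 94.5% within 2 kb to 12.1% and 33.6% beyond 50 kb. Folds of genes within 2 kb of a coding gene end and of those farther away overlapped widely. PPARα folds ran from 3.64 to 15.6 within 2 kb and from 4.04 to 14.2 beyond.

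The peaks at tRNA genes had a higher median fold and width than the rest of their own lists. Fold enrichment and q are the authors' values per peak, and the scales of the lists are not shared, so each list is described alone. The 108 PPARα peaks in tRNA windows, 1.13% of that list, had a median fold of 6.86, against 6.25 for other PPARα peaks, and a median −log10 q of 8.70 against 6.32. Their folds ran between 3.64 and 15.6. The 234 PML/RARA peaks, 0.519% of that list, had a median fold of 9.12 against 7.38, and a median −log10 q of 22.1 against 11.8. Their folds ran between 2.65 and 29.1. Of these peaks, 17 of 108 for PPARα (15.7%) and 36 of 234 for PML/RARA (15.4%) stood in the top 10% of their list by −log10 q. Median widths were 664.5 bases at tRNA genes against 502 elsewhere for PPARα, and 369 against 240 for PML/RARA. A wider peak reaches a window more readily, and the widths were not corrected for that. Over 2 kb from coding ends, the best PPARα peak per gene had a median fold of 6.30, close to the 6.25 of other PPARα peaks. Its median −log10 q there was 8.16. The best PML/RARA peak per gene there had 9.96 and 23.5. One peak often served several genes: 42 PPARα and 77 PML/RARA peaks lay in the windows of 2 or more tRNA genes, and 1 peak reached up to 4. In the other direction, 6 genes had more than 1 PPARα peak and 78 more than 1 PML/RARA peak.

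Summits of both antibodies mostly lay outside the tRNA gene, inside it at 10 of 157 PPARα genes (6.37%) and 17 of 235 PML/RARA genes (7.23%). A peak of PPARα covered part of the gene itself at 98 of 157 marked genes (62.4%), and one of PML/RARA at 173 of 235 (73.6%). The summit of the best peak was within 100 bases of the gene's centre at 15 PPARα genes (9.55%) and at 54 PML/RARA genes (22.98%). It was farther than that but within 300 bases at 75 PPARα genes (47.8%) and at 72 PML/RARA genes (30.6%). The median distance between gene and summit was 238 bases for PPARα and 208 bases for PML/RARA, and 35 PPARα and 73 PML/RARA summits lay over 500 bases away. At the 152 genes with both, the median distance was 233.5 bases for PPARα and 283 bases for PML/RARA. The summit lay inside the gene at 10 against 7, and within 200 bases at 64 against 66. Which summit was nearer was not compared gene by gene. PML/RARA summits were nearer at the 83 genes with PML/RARA alone, at a median of 122 bases with 51 within 200 bases, than at the 152 genes with both, where 66 were within 200. The peaks at genes with PML/RARA alone were also weaker, at a median fold of 7.69 and −log10 q of 11.8, against 12.8 and 54.1 at genes with both.

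**Figure D3:**
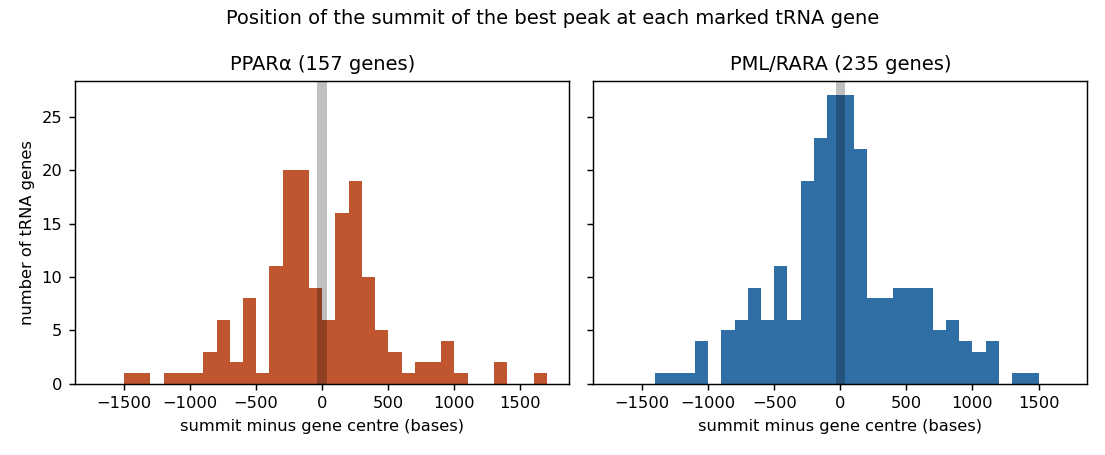
Number of marked tRNA genes (vertical axis) by the position of the best peak's summit relative to the centre of the gene in bases (horizontal axis, 100-base bins, by chromosome coordinate and not by strand). The grey band is a gene of typical length. Among PPARα summits 15 of 157 lay within 100 bases of the centre, and among PML/RARA summits 54 of 235.

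Where a tRNA gene had both, the peaks mostly overlapped. The best peaks shared at least 1 base at 141 of the 152 genes. Over these 152 genes the summits were a median of 194 bases apart, and they were within 200 bases at 78 genes (51.3%). A pair of peaks shared by several genes is counted once per gene there. Over the 108 distinct pairs of peaks, the folds had a Spearman rho of 0.534 and a Pearson r of 0.549 on the log2 scale. This is across peaks of 1 library each, which share their genome position, and is given as a description.

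The strongest PPARα peak by −log10 q, at 49.9, covered TRD-GTC1-1 (aspartate) and came up to TRW-CCA4-1 (tryptophan), at chr12:98503503-98503574 and chr12:98504252-98504323. Its fold was 14.2, and the PML/RARA peak at the same genes had a fold of 15.9. TRE-TTC2-1 (glutamate, chr13:44917927-44917998) followed with a PPARα fold of 14.2 and a PML/RARA fold of 17.0. These 3 genes lay over 10 kb from any coding end. TRQ-CTG1-4 (glutamine, chr15:65869062-65869133) lay 358 bases from an end of RAB11A, a vesicle-recycling GTPase gene, and had the highest PPARα fold at a tRNA gene, 15.6, with a PML/RARA fold of 21.2. TRD-GTC2-10 and TRA-TGC4-1 on chromosome 12 shared a PPARα peak of fold 11.8, and TRY-GTA2-1 and TRA-AGC8-1, inside AGBL5 on chromosome 2, shared one of fold 11.3.

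The PML/RARA ranking was led by other genes, though TRC-GCA4-1 and TRV-CAC1-5 were in the top 10 of both antibodies. TRM-CAT6-1 (elongator methionine, chr16:87384022-87384094) lies inside FBXO31, a ubiquitin ligase subunit gene. It had the highest −log10 q, 355, at a PML/RARA fold of 17.0, while its PPARα peak had a −log10 q of 3.07 at a fold of 4.28. TRR-CCG1-3 (arginine, chr16:3150674-3150746) came next with a PML/RARA −log10 q of 272, and a PPARα fold of 5.39. TRR-ACG1-3 (arginine, chr14:22929701-22929773), 325 bases from an end of PRMT5, an arginine methyltransferase gene, had a PPARα fold of 6.90 and a PML/RARA fold of 27.9. By −log10 q, the PPARα peak of TRM-CAT6-1 stood at percentile 16.2 of the PPARα list, that of TRR-CCG1-3 at 52.8 and that of TRR-ACG1-3 at 64.5. TRK-CTT2-3 (lysine) shared its PML/RARA peak of fold 10.3 with its neighbour TRV-CAC1-5, and the summit of that peak lay 1158 bases from TRK-CTT2-3. Its nearest PPARα peak, of fold 3.64, was 6 bases away, a peak that reaches over TRV-CAC1-5. TRF-GAA2-1, TRC-GCA2-3 and TRC-GCA2-4 had PPARα folds of 6.91, 8.14 and 8.14, and PML/RARA folds of 24.6, 23.7 and 23.7.

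Genes high in both lists were TRC-GCA4-1, TRV-CAC1-5, TRQ-TTG1-1, TRQ-CTG1-4 and TRR-ACG2-1. TRC-GCA4-1 (cysteine), 695 bases from an end of LASP1, an actin-binding protein gene, had a PPARα fold of 12.2 beside a PML/RARA fold of 13.8. TRV-CAC1-5 (valine), 814 bases from an end of the ubiquitin ligase gene TRIM41, had 9.66 and 10.3. The summits of these peaks lay 923 (PPARα) and 742 (PML/RARA) bases from the tRNA gene. TRQ-TTG1-1 (glutamine) on chromosome 17 had 11.8 and 21.8. TRR-ACG2-1, whose sequence is shown above, lies 325 bases from an end of SACM1L, a phosphoinositide phosphatase gene, and had 12.8 and 20.3.

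The 5 genes with a PPARα peak and no PML/RARA peak all lay on chromosome 6 and had weak peaks. TRQ-CTG1-2 had a fold of 5.83, TRS-GCT5-1 of 4.58 and TRA-CGC2-1 of 4.13, and TRL-AAG2-2 and TRM-CAT3-1 shared one peak of 5.17. Their −log10 q was between 2.60 and 5.44.

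By amino acid, every class but selenocysteine had a PPARα-marked gene, and every class had a PML/RARA-marked one. Phenylalanine genes were marked most often by PPARα, 8 of 11 (72.7%, 39.0 to 94.0%), with 9 of 11 marked by PML/RARA. That rank was lost, with 5 of 11 for phenylalanine and a higher share for arginine, without a window, at a −log10 q of at least 5 or at a fold of at least 5. Initiator methionine followed with 5 of 8 for PPARα and 7 of 8 for PML/RARA, and arginine with 16 and 17 of 26. Cysteine was lowest for PPARα among the classes with a mark, at 3 of 29 (10.3%, 2.19 to 27.4%), with 9 of 29 for PML/RARA. For PML/RARA, elongator methionine with 2 of 11 and asparagine with 6 of 21 were lower. Alanine, the largest class, had 8 of 37 for PPARα (21.6%, 9.83 to 38.2%) and 19 of 37 for PML/RARA. The classes are small and the intervals wide.

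On the full lists, the antibodies did not order the classes alike. Lysine had 8 of 27 genes marked by PPARα but 19 of 27 by PML/RARA, and proline and threonine each had 10 of 20 by PPARα and 16 of 20 by PML/RARA. Elongator methionine had 3 of 11 by PPARα and 2 by PML/RARA. These differences go with the length of the lists. With the PML/RARA list cut to the PPARα number, PML/RARA marked 3 lysine genes, 6 proline genes and 6 threonine genes, and 19 of the 22 classes had more PPARα-marked than PML/RARA-marked genes. Position on the genome went along with the low share of cysteine: 18 of its 29 genes lay at chr7:149310190-149707740, where PPARα marked none and PML/RARA marked 3, while the 11 elsewhere had 3 with PPARα and 6 with PML/RARA.

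**Figure D4:**
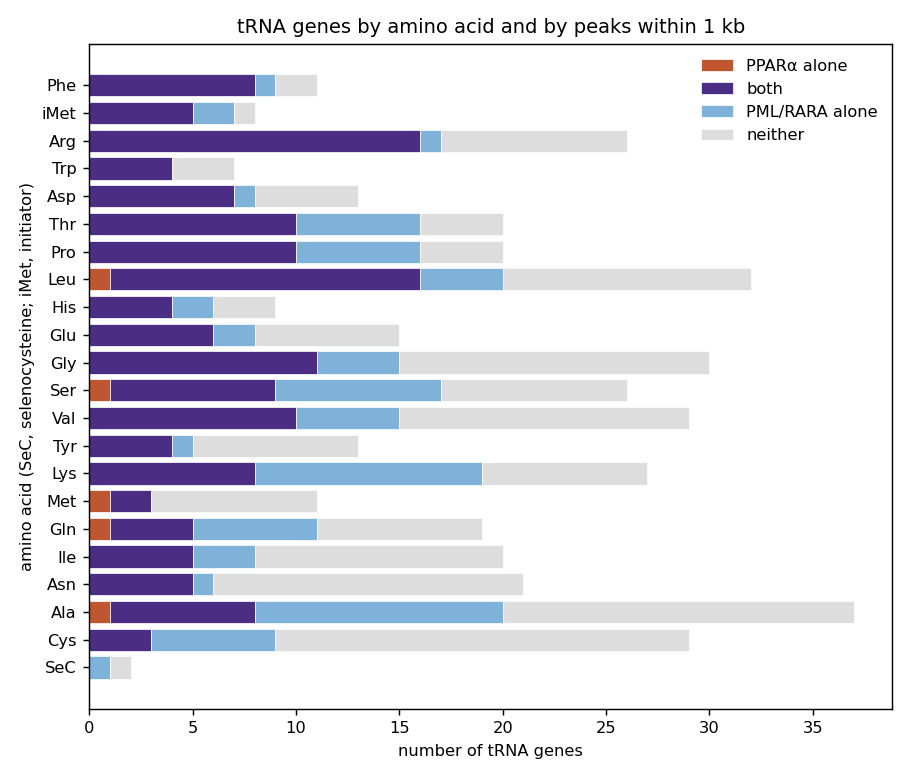
Number of tRNA genes (horizontal axis) per amino acid, coloured by PPARα alone, both, PML/RARA alone or neither, sorted by the share with a PPARα peak. Phenylalanine is at the top with 8 of 11 and selenocysteine at the bottom with 0 of 2.

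Of 48 anticodon classes, 46 had a PPARα-marked gene and 47 a PML/RARA-marked gene. TRU-TCA had no PPARα mark and the single tyrosine gene with anticodon ATA had neither. Every gene had a PML/RARA peak in Ala-TGC (8 of 8, with 2 PPARα), Thr-TGT (6 of 6, with 4 PPARα) and Arg-CCT (4 of 4, with 3 PPARα).

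All 8 initiator methionine genes bear the same isodecoder number, and they fell into 3 states. TRX-CAT1-1, TRX-CAT1-2, TRX-CAT1-6, TRX-CAT1-7 and TRX-CAT1-8 had both peaks, with PPARα folds of 8.91, 8.84, 5.67, 7.35 and 7.81. Their PML/RARA folds were 20.6, 16.9, 21.4, 7.31 and 11.4. Not all of these peaks reached the gene. At TRX-CAT1-2, which lies 992 bases from an end of H4C8, they were 624 (PPARα) and 615 (PML/RARA) bases away. The PPARα peak was 117 bases from TRX-CAT1-6, and the PML/RARA peak 327 bases from TRX-CAT1-7. TRX-CAT1-3 and TRX-CAT1-5 had PML/RARA peaks alone, of fold 15.8 and 9.63, and TRX-CAT1-4 had neither. Of the selenocysteine genes, TRU-TCA1-1 had a PML/RARA peak of fold 7.81 and no PPARα peak, and TRU-TCA2-1 had neither.

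Mixed states among copies of one sequence were common. Of 55 isodecoders with 2 or more copies, 34 had both PPARα-marked and unmarked copies, 7 had every copy marked and 14 had none. For PML/RARA 32 were mixed, 13 fully marked and 10 unmarked. Asp-GTC2 had 6 of 11 copies marked by PPARα and 7 by PML/RARA, His-GTG1 had 4 and 6 of 9, and Phe-GAA1 had 5 and 6 of 6. No source used here says how reads that match several copies were placed, so a call at one of several like copies is uncertain.

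Genes with a high isodecoder number in the symbol were marked less often. Genes with number 1 were marked in 56 of 112 cases by PPARα (50%) and 73 by PML/RARA (65.2%), and number 2 in 53 of 104 (51.0%) and 72 (69.2%). Numbers 3 and 4 had 33 of 94 for PPARα (35.1%) and 51 for PML/RARA (54.3%). From number 5 upwards, 15 of 107 had PPARα (14.02%, 8.06 to 22.1%) and 39 had PML/RARA (36.4%, 27.4 to 46.3%). The 8 genes with an older symbol that has no such number had no peak.

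Genes within 10 kb of the next formed 80 clusters of 2 or more, which held 293 genes, and 132 genes stood single. PPARα marked a gene in 45 clusters and every gene in 26, and PML/RARA marked a gene in 60 and every gene in 41. In 20 clusters no gene had either. Single genes had PPARα in 48 of 132 cases (36.4%) and PML/RARA in 65 (49.2%). Clusters of 2 to 4 genes, with 184 genes, stood at 42.9% for PPARα and 63.0% for PML/RARA, and clusters of 5 to 9, with 59 genes, at 39.0% and 61.0%. The clusters of 10 or more, with 50 genes, stood lowest, with 7 PPARα-marked and 18 PML/RARA-marked genes. The largest of these, a repeat described below, held 24 of the genes, and each antibody marked 3 of them. In the others, PML/RARA marked 9 of 14 and 6 of 12 genes, and PPARα 3 of 14 and 1 of 12. For PML/RARA the low share of this class therefore went with its largest cluster, whereas for PPARα the others were low too.

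The largest cluster, chr1:161440171-161480636, held 24 genes and was marked at one end only. TRG-TCC4-1, TRD-GTC2-1 and TRL-CAG1-1, the first 3 genes, shared 1 PPARα peak of fold 10.5 and 1 PML/RARA peak of fold 22.2, and the other 21 genes had no peak of either antibody. The cluster is a repeat: its 5 TRD-GTC2 genes follow each other at steps of 7381 to 7418 bases, and 4 of those 5 were unmarked. How reads that match several copies were placed is not known, so the missing peaks at the 21 genes are uncertain. The next cluster on chromosome 1, chr1:161523847-161540314, beside the Fc receptor genes FCGR2A and FCGR3A, had both peaks at all 4 of its genes.

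The cluster at chr16:3150674-3192060 had 14 genes, of which PPARα marked 3 with 2 peaks and PML/RARA marked 9 with 10 peaks. It holds TRR-CCG1-3 at its first position and the PML/RARA-alone proline copy TRP-TGG3-5 shown above. At chr6:26299677-26331515, PPARα marked 1 of 12 genes and PML/RARA 6, and at chr6:28789770-28823389 PPARα marked none of 8 and PML/RARA 5. In contrast, all 8 genes at chr11:59550629-59566452 had both peaks, from 4 PPARα and 4 PML/RARA peaks. That cluster runs over 5 amino acids, with PPARα folds of 4.25 to 6.91 and PML/RARA folds of 5.43 to 24.6. At chr17:8220869-8227064, 4 of 7 genes had both peaks and the other 3 neither. All 4 genes also had both peaks at chr14:20609336-20613862 and at chr17:8186358-8187666.

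**Figure D5:**
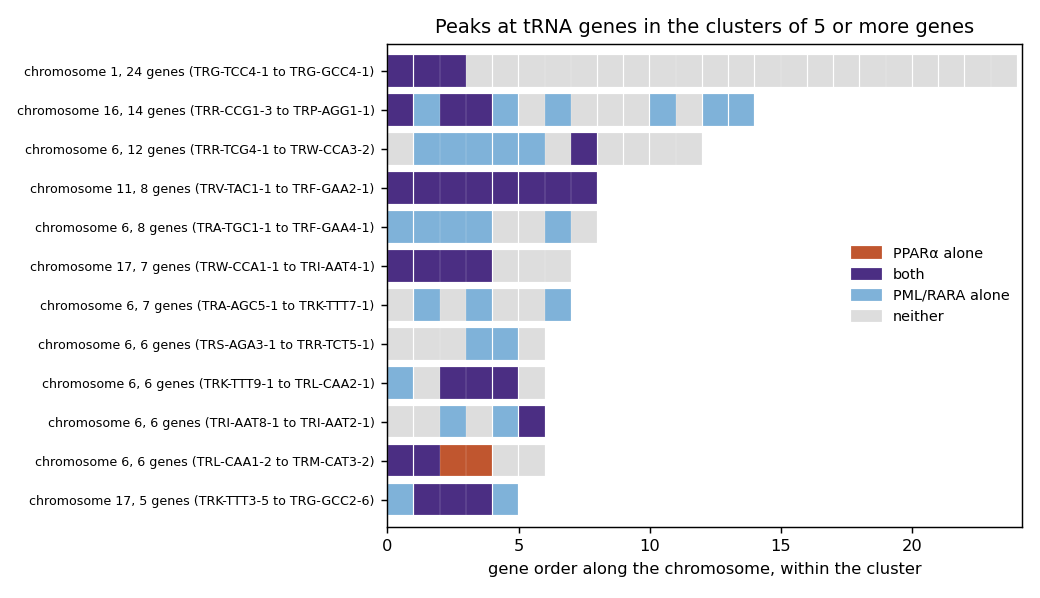
The 12 clusters of 5 or more tRNA genes, one row each, with each box a gene in chromosome order and its colour the peaks in its window. In the chromosome 1 row the first 3 of 24 genes have both peaks, and in the chromosome 11 row all 8 do.

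By chromosome, the large sets on 6 and 1 were marked less by PPARα than the smaller sets on 17, 11 and 12. Chromosome 6 had 34 of 154 genes with PPARα and 74 with PML/RARA, and chromosome 1 had 19 and 28 of 85. Chromosome 7 had 1 of 22 with PPARα and 6 with PML/RARA. Chromosome 17 had 25 of 33 with PPARα and 28 with PML/RARA, chromosome 11 had 11 and 12 of 13, and chromosome 12 had 8 and 9 of 9.

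The window of 1 kb has members near its edge. The farthest PPARα-marked genes inside it were TRK-CTT3-1, TRT-TGT5-1 and TRL-CAG1-1, with the peak edge at 845, 807 and 641 bases, and the nearest outside were TRK-TTT3-5, TRK-CTT2-1 and TRE-CTC1-1, at 1143, 1333 and 1401 bases. For PML/RARA, TRA-AGC7-1, TRT-TGT4-1 and TRP-AGG2-2 lay inside at 961, 961 and 932 bases, and TRG-GCC4-1, TRL-CAA5-1 and TRC-GCA2-2 outside at 1213, 1225 and 1275 bases.

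Genes that make, mature or charge tRNAs also carried peaks at their ends. The 18 RNA polymerase III subunit genes had PPARα in 13 cases (72.2%, 46.5 to 90.3%) and PML/RARA in 17 (94.4%), beside 33.1% and 59.2% of all protein-coding genes. POLR3G, whose product is a subunit of one form of the polymerase, had a PPARα fold of 10.2 beside a PML/RARA fold of 14.9, and POLR3B, the second largest subunit, had 9.41 and 16.1. POLR2K had neither. POLR3E lies 188 bases from the leucine tRNA gene TRL-AAG2-4 on chromosome 16, and both carry the same PPARα peak of fold 8.14, a pair named after its values were seen. Of 18 genes for the polymerase's factors and its repressor MAF1, 11 had PPARα (61.1%) and all 18 had PML/RARA. SNAPC5, a subunit of the complex that binds U6-type promoters, had a PPARα fold of 9.74 and a PML/RARA fold of 21.7, and SNAPC2, of the same complex, had 7.70 and 13.5. GTF3C2, a TFIIIC subunit, had a PPARα −log10 q of 17.9 and a PML/RARA fold of 21.0. TBP, the TATA-binding protein within TFIIIB, had 9.97 and 23.4, and MAF1, named as the one repressor of the list, had 8.37 and 19.3.

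Of 23 genes for cytosolic aminoacyl-tRNA synthetases and their cofactors, which load tRNAs with amino acids, 16 had PPARα (69.6%) and all 23 had PML/RARA. All protein-coding genes stood at 33.1% for PPARα and 59.2% for PML/RARA. FARSB, a subunit of the phenylalanine enzyme, had a PPARα fold of 12.7 beside a PML/RARA fold of 15.1. AIMP1, a scaffold of the synthetase complex, had 11.8 and 12.6, and NARS1, the asparagine enzyme, had 11.8 and 20.1. Of 26 genes for end processing, splicing and modification, 13 had PPARα (50%) and 23 had PML/RARA (88.5%). RPP40, a protein of RNase P, which trims the 5′ end of tRNAs, had folds of 14.3 and 17.1. TSEN34, a catalytic subunit of the tRNA splicing endonuclease, had the highest PPARα −log10 q of these genes, 42.1, and a PML/RARA fold of 12.6. With the PML/RARA list cut to equal length, PML/RARA counts were 11 of the 18 factors, 15 of the 23 synthetase genes and 13 of the 26 processing genes.

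Other genes that RNA polymerase III transcribes also carried peaks. Of 21 such genes, 13 had PPARα (61.9%, 38.4 to 81.9%) and 17 had PML/RARA (81.0%), in the gene and 1 kb on each side, or 9 for PML/RARA with the list cut. Under that window 3.36% of other genes of 150 bases or less had PPARα and 9.6% had PML/RARA. The classes are not fully alike, since some of the 21, RPPH1, RN7SK and RMRP among them, are longer than 150 bases. Their windows are larger, and the nearness of the 21 genes to coding gene ends was not tested. RPPH1, the RNA of RNase P, had a PPARα fold of 11.6 beside a PML/RARA fold of 26.8. RN7SK, a regulator of transcription elongation, had 11.9 and 19.4. RMRP, the RNA of RNase MRP, had 9.90 and 23.5, and RNU6-2, a U6 splicing RNA gene, had 11.6 and 17.2.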

How the data were processed

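Peak lists of 2 CUT&Tag libraries of NB4 cells were used, 1 per antibody. Coordinates are on hg38, and Bowtie2 2.2.9, SAMtools, MACS 1.4.2 and bedtools are named, per the submitters' processing notes, without roles or settings. Not given in the sources used here is how duplicates, reads with several matches and masked regions were handled. The narrowPeak files as deposited by the authors give, per peak, a fold enrichment (a linear ratio), a display score, the −log10 of a p-value and of a q-value, and the summit as an offset from the start. The score and the −log10 p were not used in a result. The deposited lists come without counts, so precision from depth is unknown.

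From them, peaks on chromosomes 1 to 22 were set against RefSeq genes of GRCh38.p14, the assembly of hg38, with a window of 1 kb and at least 1 shared base. The gene table has neither strand for tRNA genes nor exons. Rows whose coordinates dropped by over 1 Mb against the row order were taken as other scaffolds, which left out 14 tRNA genes. The best peak of a gene is the one of highest −log10 q. Clusters joined genes within 10 kb, and "near a coding gene" means within 2 kb of either end. Shares carry 95% Clopper-Pearson intervals, and no test was made, since each antibody has 1 list and neighbouring genes share peaks. The overlap step was tested on simulated peaks. Promoter sequences are RefSeq's (GRCh38.p14). Python 3.11.15, pandas 2.3.3, numpy 2.4.6, SciPy 1.17.1 and matplotlib 3.10.9 were used.

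The tRNA genes and the gene lists were chosen with earlier results of these data known. Named genes are the 10 of highest −log10 q per antibody, the 5 best by joint rank, all with PPARα alone, initiator and selenocysteine genes, the 6 largest clusters, the fully PPARα-marked clusters of 4 or more genes, extremes by amino acid, and 2 to 4 list members of highest PPARα −log10 q. Other windows, thresholds, cluster distances and left-out chromosomes were tried. One gene of the marker check is not reported here.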

Additional observations from a re-analysis of the deposited data

How the results depend on the processing

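Of the alternatives for the main counts, 103 gave a value within 1.5 times and 16 moved further. Without a window, PPARα marked 98 genes and both antibodies 90. Once the PML/RARA list was cut to as many peaks as the PPARα list, PML/RARA marked 99 genes, both 91 and PML/RARA alone 8, and PML/RARA marked 11 polymerase factors, 15 synthetase genes, 13 processing genes and 9 other polymerase III transcribed genes. Counts and not shares were compared, so leaving genes out lowers a value by itself. Without genes near coding ends, PPARα marked 94 of 352 (26.7%) and both 89 (25.3%). Without chromosome 6, which holds 154 of the 425 genes, PML/RARA alone marked 38 and 110 had neither. With clusters joined at 50 kb there were 48, of which 29 held a PPARα-marked and 34 a PML/RARA-marked gene. By amino acid, 47 counts moved by over 1.5 times and 261 did not. Keeping the 14 genes left out for their coordinates, leaving out the 8 unnumbered symbols and all alternatives for the gene lists were chosen after seeing the data. The first 2 of these left the counts of marked genes as they were. No paired analysis was possible because each antibody has 1 peak list and no replicate. Depth is unknown, so an unmarked gene is one without a called peak, which does not show that the protein is absent there.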

Other observations

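Of the 4 tRNA genes on the X chromosome, which the set of 425 does not hold, 0 had a PPARα peak and 1 had a PML/RARA peak within 1 kb.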
